A study of Mus musculus with 12 samples.

Results

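The genes examined here encode the proteins of the cytosolic ribosome. They were taken from a table of 34102 mouse genes by symbol: names beginning Rpl, Rps or Rplp with their number, and Rpsa, without the S6 kinases (Rps6k), Rps19bp1 and symbols that carry -ps. This gave 92 genes on 19 chromosomes, of which 52 have large-subunit symbols, 37 small-subunit symbols and 3 are the stalk genes Rplp0, Rplp1 and Rplp2. In the GENCODE annotation (release M21, build mm10) 85 of them are protein-coding and 7 are pseudogenes.

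A ribosome joins 1 copy of each of these proteins to ribosomal RNA, with the acidic stalk proteins present in several copies, so cells keep the output of the genes in balance. The messenger RNAs begin with a run of pyrimidines, the terminal oligopyrimidine (TOP) tract, through which the kinase complex mTORC1 and the RNA-binding protein LARP1 adjust their translation. Neural progenitors are known for high ribosome production while they divide. The genes have also given rise to many retrotransposed copies, most of them intronless pseudogenes, so a short read from 1 of these messenger RNAs can match several places in the genome equally well.

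RNA was sequenced from 12 libraries in 4 groups of 3, all from C57BL/6 mice. The cortex groups both carried floxed alleles of Srsf10, which encodes a splicing regulator. Controls were Nestin-Cre-, and the animals labelled conditional knockout (cKO) were Nestin-Cre+, a transgene that expresses Cre in neural progenitors and the cells they form. No group carried Nestin-Cre without the floxed gene, so an effect of the transgene and one of the floxed gene cannot be told apart. The other groups were primary cortical neural progenitor cells (NPC) in culture, one labelled wild-type control and the other SRSF10 knockdown by lentivirus at a multiplicity of 30, with RNA taken 72 h after infection. Neither the virus used for the controls nor the age of the mice is stated. Whether libraries came from separate animals or cultures is not stated either, so p-values measure the spread between these libraries, which may be technical.

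Srsf10 itself did not separate the groups. In counts per 1000000 counts of the library (CPM), adjusted by edgeR's TMM factor, it stood at 196, 215 and 201 in control cortex, at 219.6, 185 and 217 in the cortex libraries labelled cKO, at 253, 230.1 and 227 in control NPC and at 240.5, 224 and 220.5 in the NPC libraries labelled knockdown. The groups overlapped in cortex and in NPC (edgeR log2 fold changes 0.03, adjusted p = 0.919, and -0.05, adjusted p = 0.775). Treated groups are therefore named by their labels, and every direction below rests on those labels. Depth ran from 26074094 to 36713205 assigned counts per library. Libraries in which the Y-linked gene Ddx3y passed 10 CPM of total counts were taken as male. These were control cortex libraries 2 and 3, cKO library 3 and library 3 of both NPC groups. Every group thus held libraries of both kinds, and the cortex groups were not balanced for sex. Summed levels of 5 neuronal markers were 8163 to 8516 CPM of total counts in cortex and 1004 to 1340.5 CPM in NPC, and those of 5 progenitor markers 356 to 425 CPM in cortex and 5519 to 6695 CPM in NPC. Sums of 4 oligodendrocyte lineage markers were 195 to 239 CPM in cortex and 2739 to 2927 CPM in NPC, and those of 4 astrocyte markers 457 to 512 CPM and 1807 to 2166 CPM. The 4 choroid plexus markers (Ttr, Folr1, Kcnj13 and Clic6) summed to 1229 and 1115 CPM in the control cortex library 2 and the cKO library 3, where Ttr alone passed 1000 CPM; the lowest sums were 3.91 CPM in control and 19.5 CPM in cKO cortex. In bulk RNA fewer cells of a type and less RNA per cell cannot be told apart.

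For several of the 92 genes the counts in the table were divided between the gene and a near-identical copy elsewhere, and the coding sequence of Rps28 shows how close gene and copy can be. Rps28 encodes a small-subunit protein and had very low counts in cortex and high counts in NPC. Its coding sequence (ENSMUSG00000067288, chromosome 17) is 210 bases long and is identical to the processed pseudogene Gm10443 at chr6:86334031-86334240, plus strand, mm10. The sequence below is therefore both the gene's coding sequence and its copy, with no differing base to put in capitals.

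Rps28 and Gm10443: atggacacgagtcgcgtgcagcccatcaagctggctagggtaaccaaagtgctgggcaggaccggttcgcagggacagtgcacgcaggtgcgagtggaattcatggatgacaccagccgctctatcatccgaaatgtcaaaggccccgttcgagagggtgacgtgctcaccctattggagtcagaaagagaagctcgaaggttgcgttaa

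Other pairs differ by so little that, within the coding sequence, only reads over the differing bases can tell gene and copy apart. Sequence outside the coding part was not compared. Such pairs carry the largest values of the cortex comparison. Rpl30, a large-subunit protein gene, differs from Gm12191 at 1 of 348 coding bases, shown in capitals within bases 66 to 126 counted from the start codon.

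Rpl30: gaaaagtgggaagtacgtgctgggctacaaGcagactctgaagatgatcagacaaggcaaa

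Gm12191: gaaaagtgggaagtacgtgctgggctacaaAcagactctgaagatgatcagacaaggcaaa

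Rpl34, also of the large subunit, differs from Rpl34-ps1 at 2 of 354 coding bases, in capitals within bases 102 to 162 and 288 to 348.

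Rpl34, first site: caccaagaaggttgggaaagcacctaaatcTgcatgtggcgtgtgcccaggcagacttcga

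Rpl34-ps1, first site: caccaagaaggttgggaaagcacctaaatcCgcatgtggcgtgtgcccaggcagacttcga

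Rpl34, second site: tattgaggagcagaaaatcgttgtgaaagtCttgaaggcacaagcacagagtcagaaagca

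Rpl34-ps1, second site: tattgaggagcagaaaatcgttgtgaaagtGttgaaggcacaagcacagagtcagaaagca

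Of the 92 genes, 85 had at least 1 annotated sequence elsewhere that matched at least 90% of bases over at least 80% of the coding sequence, and 75 had 1 at 97% or more. The copies outside the 92 genes numbered 980, of which 697 have a row of their own in the count table. Rpl21 had the most, 76. Genes with none included Rpl3l, Rpl8, Rpl39l, Rplp2 and Rps3, which were chosen after the matches were seen. The search from Rpl37rt's own sequence also found none, but the search from Rpl37 found Rpl37rt as a copy.

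The start sequences were searched for the pyrimidine tract the family is known for. RefSeq start sites (GRCm38.p6) were matched for 67 of the 92 genes. In the window from 20 bases before to 30 after the start, 44 of the 67 (65.7%) held at least 1 of 4 pyrimidine words (CTTTC, or CTTTT, or CTTCC, or CTCTT) in the sense direction, against 27.0% of 27025 genes; in the reverse direction the shares were 31.3% and 28.9%. A match exactly at the annotated start was found for 10 of 67 genes (14.9%) and for 0.947% of all genes. These short words overlap each other, and a match is a description of the letters only. Windows of 15 bases on either side of the start are shown for 3 of the 10, with the pyrimidine run from the first transcribed base in capitals: Rpl15 at chr14:18270972-18271001 (minus strand), Rpl35 at chr2:39005117-39005146 (minus strand) and Rps6 at chr4:86857353-86857382 (minus strand).

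Rpl15: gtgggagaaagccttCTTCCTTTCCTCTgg

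Rpl35: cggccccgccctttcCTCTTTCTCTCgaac

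Rps6: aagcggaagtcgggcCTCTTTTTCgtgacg

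The 92 genes together took 1.72% ± 0.162 of assigned counts in control cortex and 1.69% ± 0.162 in cortex labelled cKO (mean ± SD, n = 3 each). In NPC they took 3.31% ± 0.191 in controls and 3.37% ± 0.0652 in the libraries labelled knockdown (n = 3 each). Within each system the treated and control ranges overlapped, from 1.58% to 1.90% over the cortex libraries and from 3.11% to 3.48% over the NPC libraries. Every NPC library lay above every cortex library, and the same held for the large and the small subunit taken alone. The annotated copies outside the 92 genes added 0.387% ± 0.0420 in control cortex and 0.308% ± 0.0193 in control NPC (n = 3 each).

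**Figure D1:**
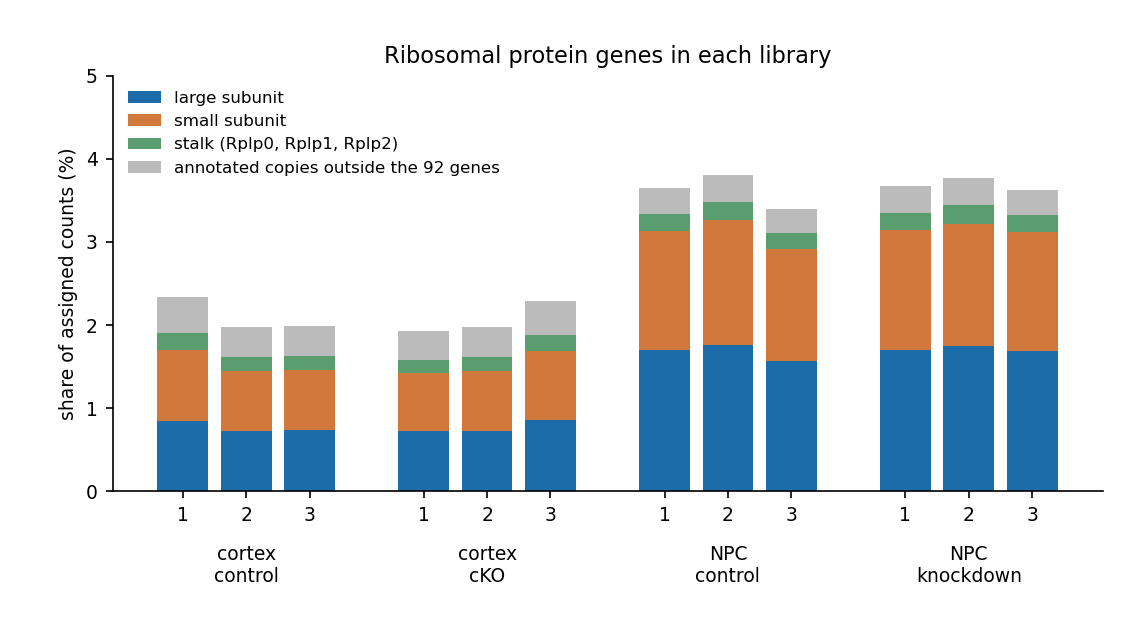
Share of assigned counts (percent, vertical axis) in each of the 12 libraries, split into large-subunit, small-subunit and stalk genes and the annotated copies outside the 92 genes. The 6 NPC libraries sit above the 6 cortex libraries, and treated and control libraries of a system overlap.

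Levels of different genes are compared here as CPM per kilobase of coding sequence, because annotated transcript ends vary. The median over the genes with a coding length was 259 in control cortex and 776 in control NPC. Rpl41 had the highest value in both (5488 ± 855 and 9412 ± 735, n = 3 each), but its coding sequence has only 78 bases, a very short length to divide by. In control cortex the next highest were Rplp1 (1535 ± 367), a stalk protein, Rpl39 (1275 ± 177), Rps24 (1217 ± 35.6) and Rps15 (1093 ± 152), and neighbours in this order differed by less than the larger of their SDs. In control NPC Rps26 (1849 ± 91.2) and Rplp1 (1691 ± 103) came next, further apart than either SD. Rpl27a (1478 ± 81.1) and Rps29 (1453 ± 85.4) followed, closer together than either SD.

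The low end differed between the systems. The ranking covers genes with a coding length and leaves out Rps4l, which had 0.347 CPM in control cortex. In control cortex the 5 lowest values per kilobase were those of Rpl10l (0), Rpl3l (0.0453), Rpl39l (0.118), Rps28 (0.781) and Rpl10a (8.23). In control NPC they were those of Rpl10l and Rpl39l (0 each), Rpl3l (0.109), Rpl24 (1.28) and Rpl36al (2.6). Rps28, Rpl10a, Rpl24 and Rpl36al encode general ribosomal proteins, and each was low in 1 system only.

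A group of 5 genes stayed under 5 CPM in every group: Rpl3l, Rpl10l, Rpl39l, Rpl32l and Rps12l1. The first 3 are paralogues known mainly from muscle (Rpl3l) and testis (Rpl10l, Rpl39l), and the other 2 are annotated as processed pseudogenes. Rpl10l had 0 counts in all 12 libraries, which allows up to 0.115 CPM in the shallowest library and 0.0817 CPM in the deepest (3 counts each, counting error only). Rpl39l had 0 counts in the 6 NPC libraries and at most 0.231 CPM in cortex. None of the 5 passed the count filter. Rps28 was also left out of the cortex test because of its low counts there, so 86 genes were tested in cortex and 87 in NPC.

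Of the expressed paralogues, Rpl22l1, Rpl7l1 and Rps4l stood below their parents in both systems, while Rps27l and Rpl36al stood above theirs in cortex. Rpl22l1 had 41.4 ± 4.24 CPM in control cortex, against 78.0 ± 5.63 CPM in control NPC, where Rpl22 had 347 ± 32.8 and 289 ± 8.47 CPM (n = 3 each). Rpl7l1, whose product acts in ribosome assembly, had 59.9 ± 5.83 and 139.6 ± 4.97 CPM, against 681 ± 57.2 and 753 ± 31.7 CPM for Rpl7. Rps27l, known as a p53 target, had 27.3 ± 3.42 CPM in control cortex, above its parent Rps27 at 2.58 ± 0.607 CPM. Rps27 summed with its copies, the identical coding sequence of Rps27rt included, had 8.73 ± 0.329 CPM there. In control NPC Rps27l had 186 ± 10.6 CPM and Rps27 198 ± 10.5 CPM. Rps4l had 0.347 ± 0.131 and 5.29 ± 1.34 CPM, against 621 ± 45.0 and 817 ± 36.0 CPM for Rps4x. Rpl36al had 70.2 ± 10.7 CPM in the cortex controls, above Rpl36a at 10.4 ± 1.09 CPM and above Rpl36a summed with its copies at 41.1 ± 5.86 CPM; in the NPC controls it had 0.836 ± 0.254 CPM and Rpl36a 179 ± 13.5 CPM. Rpl3, Rpl10 and Rpl39, whose paralogues were near 0, had 353 ± 44.8, 204 ± 26.6 and 199 ± 27.6 CPM in control cortex, against 791 ± 57.0, 497 ± 27.7 and 173 ± 8.47 CPM in control NPC.

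In cortex labelled cKO no ribosomal protein gene passed the test. By edgeR 0 of 86 tested genes had an adjusted p under 0.05, where 0.196% of all 15781 tested genes did; by DESeq2 the number was also 0, where 2.14% did. At an unadjusted p under 0.05 there were 2 genes, Rpl5 and Rpl17 (10.8% of all genes reached this), and DESeq2 gave 3 (10.9% of all genes). Log2 fold changes ran from -0.48 to 0.60 with a median of -0.06, against 0.00 over all genes, and 65 of the 86 were below 0. The medians were -0.07 for the large subunit, -0.05 for the small subunit and -0.06 for the stalk. The sign of the median rested on 1 library: it was 0.03 without control replicate 1, with 36 of 86 genes below 0. That library also had the highest sum of 5 erythroid markers, 45.7 CPM against 8.57 to 17.1 CPM in the other 5 cortex libraries; its part in the median was not tested. Without the 2 libraries rich in Ttr it was -0.17, with 79 of 86 below 0, 20 at an unadjusted p under 0.05 (15.1% of all genes in that fit) and 0 called.

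The stalk genes differed by less than their spread in cortex. Rplp0, which anchors the stalk, had 1078, 937 and 959.7 CPM in controls and 911, 927 and 1038 CPM in the cKO group (a log2 fold change of -0.04, 95% interval -0.22 to 0.14). Rplp1 had 675, 446 and 468 CPM in controls and 471, 481 and 567 CPM in cKO (-0.06, -0.42 to 0.30). In Rplp0, Rplp1 and Rplp2 control replicate 1 was the highest library and the groups overlapped. Rpsa, a small-subunit protein also known as a laminin receptor, had 938, 787 and 813 CPM in controls and 759.7, 793 and 808 CPM in cKO (-0.10, -0.27 to 0.08).

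Rpl5 and Rpl11 encode the proteins that, with the small ribosomal RNA they bind, inhibit the p53 regulator MDM2 when ribosome assembly is disturbed. Rpl5 had 93.7, 91.0 and 90.6 CPM in controls and 110.1, 93.6 and 115 CPM in cKO cortex. The libraries 1 and 3 of the cKO group were higher and library 2 stood next to the controls (log2 fold change 0.22, 95% interval 0.03 to 0.40; edgeR adjusted p = 0.367). Its copies had means of 51.2 CPM in controls and 46.1 CPM in cKO, and the log2 fold change of gene and copies together was 0.10 (-0.09 to 0.29; edgeR adjusted p = 0.718). Rpl11 had 130.2, 103 and 109 CPM in controls and 96.4, 113 and 115 CPM in cKO, overlapping groups with a value of -0.07 (-0.29 to 0.14). Rps6, the S6 kinase target of the small subunit, had 17.8, 15.3 and 16 CPM against 20.9, 15.7 and 21.9 CPM (0.26, -0.04 to 0.57).

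Of the 86 tested genes only Rpl13 had cortex groups that did not overlap, with 7.73, 6.85 and 6.93 CPM in controls and 5.12, 5.36 and 6.58 CPM in cKO (log2 fold change -0.32; edgeR adjusted p = 0.535). Its copies held 34.2 CPM in control cortex, and the sums of gene and copies overlapped, with 48.4, 34.5 and 41.8 CPM in controls and 34.8, 33.5 and 45.8 CPM in cKO (-0.13, edgeR adjusted p = 0.796). Over all tested genes 9.52% lay wholly lower and 7.76% wholly higher in cKO cortex. Rpl17, named after its values were seen, had 7.34, 9.21 and 12.2 CPM in controls and 6.50, 7.07 and 7.74 CPM in cKO, overlapping groups (-0.42; edgeR adjusted p = 0.452). Its annotated copies held 173 CPM in control cortex, far more than the gene.

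The largest positive and negative values in cortex belonged to Rpl30 and Rpl34, named after their values were seen, and each was mirrored by its near-identical copy. Rpl30 had 133, 114 and 118 CPM in controls and 203, 114 and 233 CPM in the libraries labelled cKO. Gm12191 had 101, 100.5 and 102 CPM in controls and 36.0, 94.2 and 44.0 CPM in cKO. Thus cKO libraries 1 and 3 were high for the gene and low for the copy, while library 2 was like the controls in both. The gene took 53.2% to 56.9% of the pair's counts in the 3 controls and 54.7% in cKO library 2, but 84.9% and 84.1% in cKO libraries 1 and 3. The log2 fold change of Rpl30 was 0.60 (SE 0.29, 95% interval -0.15 to 1.35; edgeR adjusted p = 0.541). Summed with all its annotated copies it was 0.11 (-0.11 to 0.32; edgeR adjusted p = 0.737). Without cKO replicate 2 Rpl30 alone was called, at 0.85 (edgeR adjusted p = 0.00984).

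For Rpl34 1 control library stood apart. The gene had 74.0, 68.9 and 132 CPM in controls and 62.3, 64.7 and 69.2 CPM in cKO cortex, and Rpl34-ps1 had 47.6, 51.0 and 5.43 CPM in controls and 50.3, 48.8 and 51.6 CPM in cKO. The gene took 96.0% of the pair's counts in control library 3 and 55.3% to 60.9% in the other 5 cortex libraries. Its log2 fold change was -0.48 (SE 0.25, 95% interval -1.09 to 0.13; edgeR adjusted p = 0.552), and -0.12 (-0.28 to 0.03; edgeR adjusted p = 0.559) when summed with its copies. In the 6 NPC libraries Rpl30 took 93.5% to 94.7% of its pair and Rpl34 94.6% to 95.1%, with no library apart. What set the split in each cortex library was not tested.

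**Figure D2:**
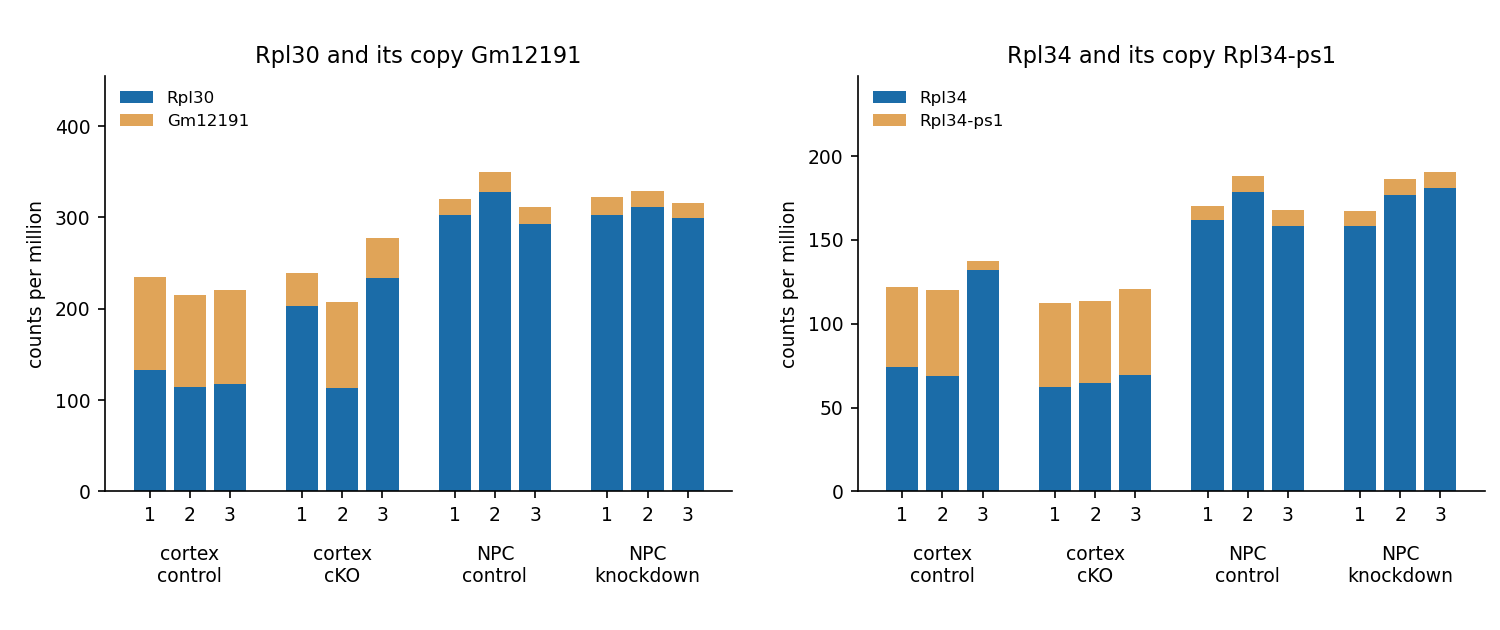
CPM of Rpl30 with its copy Gm12191 (left) and of Rpl34 with its copy Rpl34-ps1 (right), stacked, in each of the 12 libraries. The split changes in cKO cortex libraries 1 and 3 for Rpl30 and in control cortex library 3 for Rpl34, while the stacked height stays between 208 and 277 CPM and between 113 and 137 CPM in cortex.

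Summing every gene with its annotated copies narrowed the cortex values as a whole. The 92 genes and their copies form 85 families, of which 82 were tested. None was called (0.199% of 15569 genes and families in all were), and the values ran from -0.38 to 0.18 with a median of -0.06.

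In NPC the ribosomal protein genes differed little between the libraries labelled knockdown and their controls. Without pairing, edgeR called 0 of 87 tested genes, where 1.91% of all 14258 tested genes were called; DESeq2 also called 0, where 7.10% were called. At an unadjusted p under 0.05 there were 2, Rpl12 and Rpl27a, against 18.3% of all genes. The median log2 fold change was 0.02, and 78 of the 87 genes lay within 0.1 of 0. Over all tested genes 5295 of 14258 did. The median absolute value was 0.04 for the ribosomal protein genes and 0.15 over all genes.

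Same-numbered NPC libraries varied together, so the fit with the replicate number as a pair is given beside the unpaired one. With pairs 3 of 87 ribosomal protein genes were called, 2 higher and 1 lower, where 25.1% of all genes were called (12.1% higher and 13% lower). DESeq2 with pairs also called 3, where 17.1% of all genes were called. The number was 5 without pair 1, and 0 without pair 2 or without pair 3, where 30.4%, 15.2% and 11.3% of all genes were called.

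Rpl12, a large-subunit protein at the base of the stalk, rose in the paired fit. It had 389, 379 and 338 CPM in control NPC and 431, 426 and 394 CPM in the libraries labelled knockdown. All knockdown libraries lay above all controls, and the log2 fold change was 0.18 (SE 0.05, edgeR adjusted p = 0.0108 paired and 0.267 unpaired). Rps2, a small-subunit protein near the messenger RNA entry channel, had 1230.5, 1190.2 and 1074 CPM in controls and 1313, 1310.5 and 1256 CPM in knockdown. Its groups did not overlap either (0.16, SE 0.05, edgeR adjusted p = 0.0342 paired and 0.320 unpaired).

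Rpl27a, of the large subunit, fell in the paired fit. It had 669, 693 and 621 CPM in controls and 581, 586 and 566 CPM in knockdown, wholly lower (log2 fold change -0.19, SE 0.05, edgeR adjusted p = 0.0122 paired and 0.203 unpaired). Summed with annotated copies the paired log2 fold changes were 0.18 for Rpl12, 0.15 for Rps2 and -0.18 for Rpl27a, and again 3 families of 82 were called with pairs (25.4% of all genes and families). Lrsam1 overlaps Rpl12 and Snhg9 overlaps Rps2 on the opposite strand. Whether the counting used strand is not stated, so reads of either partner cannot be told apart. Among all tested genes 10.1% lay wholly higher and 13.4% wholly lower in knockdown.

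In cortex the 3 genes called in NPC were not called, with log2 fold changes of -0.30 for Rpl12, 0.03 for Rpl27a and 0.04 for Rps2.

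**Figure D3:**
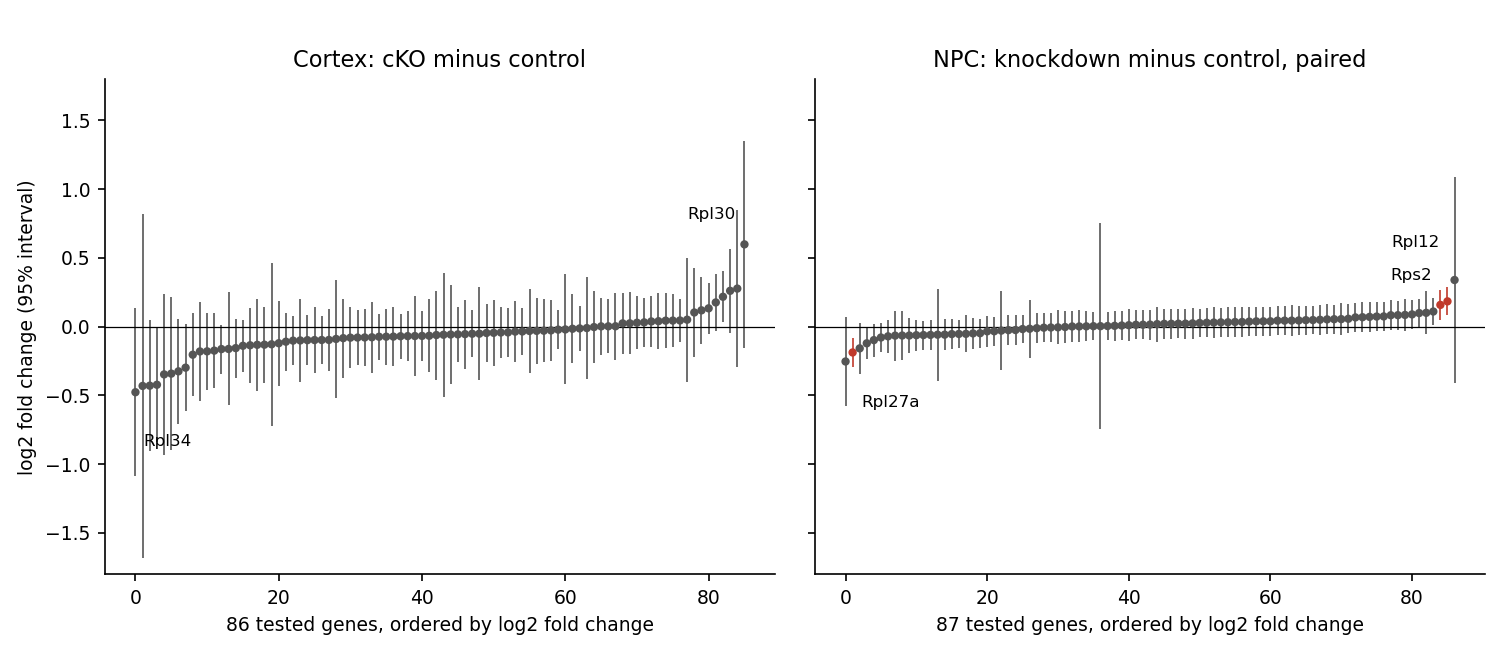
Log2 fold change with 95% interval (vertical axis) of each tested ribosomal protein gene, ordered by value, in cortex (left, 86 genes) and in NPC with the replicate number as a pair (right, 87 genes); red marks genes called at an adjusted p under 0.05. No gene is called in cortex, and Rpl12, Rps2 and Rpl27a are called in NPC.

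The remaining named genes had overlapping NPC groups. Rplp0 had 1328, 1372 and 1178 CPM in controls and 1346, 1432 and 1269.6 CPM in knockdown, with a paired log2 fold change of 0.07 (95% interval -0.04 to 0.18), and Rplp1 and Rplp2 had -0.01 and 0.01. Rpsa had 0.04 (-0.07 to 0.15), Rpl5 0.02 (-0.09 to 0.14), Rpl11 0.03 (-0.07 to 0.14) and Rps6 -0.05 (-0.15 to 0.06). The paralogue values were -0.06 (-0.19 to 0.06) for Rpl22l1, -0.10 (-0.22 to 0.02) for Rps27l and 0.07 (-0.04 to 0.18) for Rpl7l1. Rps27a, which encodes a ribosomal protein fused to ubiquitin, had 289, 159 and 283 CPM in controls and 271, 177 and 242 CPM in knockdown: library 2 was the lowest of both groups. Its unpaired interval ran from -0.65 to 0.50 and its paired interval from -0.19 to 0.08.

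The response of the family in cortex and in NPC was compared with the interaction term over all 12 libraries. None of 87 genes was called (1.62% of 16569 genes were). With the replicate number as a block in both NPC and cortex, and with DESeq2, the number was also 0 (4.09% and 4.73% of all genes). At an unadjusted p under 0.05 there were 2, Rpl12 and Rpl13 (14.2% of all genes). The median interaction was 0.09 against 0.02 over all genes, and 0.00 without control cortex replicate 1. Rpl12 had 0.49 (SE 0.16, edgeR adjusted p = 0.173), and 0.27 (edgeR adjusted p = 0.339) summed with its copies. Without cKO replicate 2 the count was 1, Rpl30 at -0.86 (edgeR adjusted p = 0.00972).

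Control NPC and control cortex differed at most ribosomal protein genes, far more than treated and control libraries did. By edgeR 74 of 87 tested genes were called, where 78.8% of all 15676 genes were. Of them 67 were higher and 7 lower in NPC, against 38.4% and 40.4% of all genes. The median log2 difference was 1.15 and the range -6.55 to 9.79; over all genes the median was -0.03. A difference of at least 8-fold was seen for 21 genes higher and 3 lower in NPC (5.91% and 13.6% of all genes, 19.5% together). The systems also differ as preparations, tissue and culture, and it is not stated that their reads were counted alike; the parts of preparation, counting and cell type (the marker sums given above) cannot be told apart.

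The 10 largest differences upward were those of Rps28, Rpl10a, Rps23, Rps27, Rps29, Rpl13, Rpl28, Rpl32, Rpl27 and Rps16. Rps28 had 0.275, 0 and 0.217 CPM in the cortex controls and 154, 161 and 149 CPM in the NPC controls. Its copy Gm10443, identical in the coding sequence printed above, went the other way, with 131, 80.9 and 94.2 CPM in control cortex, against 19.9, 21.5 and 18.6 CPM in control NPC. The sum of gene and copy was 102 ± 25.8 CPM in cortex and 175 ± 7.74 CPM in NPC. Rps28 thus took 0.161% of that sum in cortex and 88.6% in NPC.

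Rps29 repeated the pattern with Gm14303. The gene had 4.10, 2.66 and 3.20 CPM in control cortex, against 251, 261 and 233 CPM in control NPC, and the copy 203, 124 and 123.4 CPM in cortex and 2.005, 2.05 and 2.87 CPM in NPC. The gene's share of the sum was 2.16% in cortex and 99.1% in NPC. Rps13, Rps23 and Rpl10a took 4.80%, 2.74% and 6.33% of the sum with Rps13-ps1, Rps23-ps1 and Rpl10a-ps1 in control cortex and 99.2%, 97.1% and 97.96% in control NPC. Rps10 differed from these: it had 8.47, 7.27 and 8.96 CPM in control cortex, against 5.98, 4.52 and 3.83 CPM in control NPC, while Rps10-ps2 had 117, 91.5 and 90.3 CPM and 204, 203 and 177 CPM. Rps10 alone was lower in NPC (-0.80, edgeR), but with its copies the family was higher (0.84, edgeR adjusted p = 5.8e-05).

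**Figure D4:**
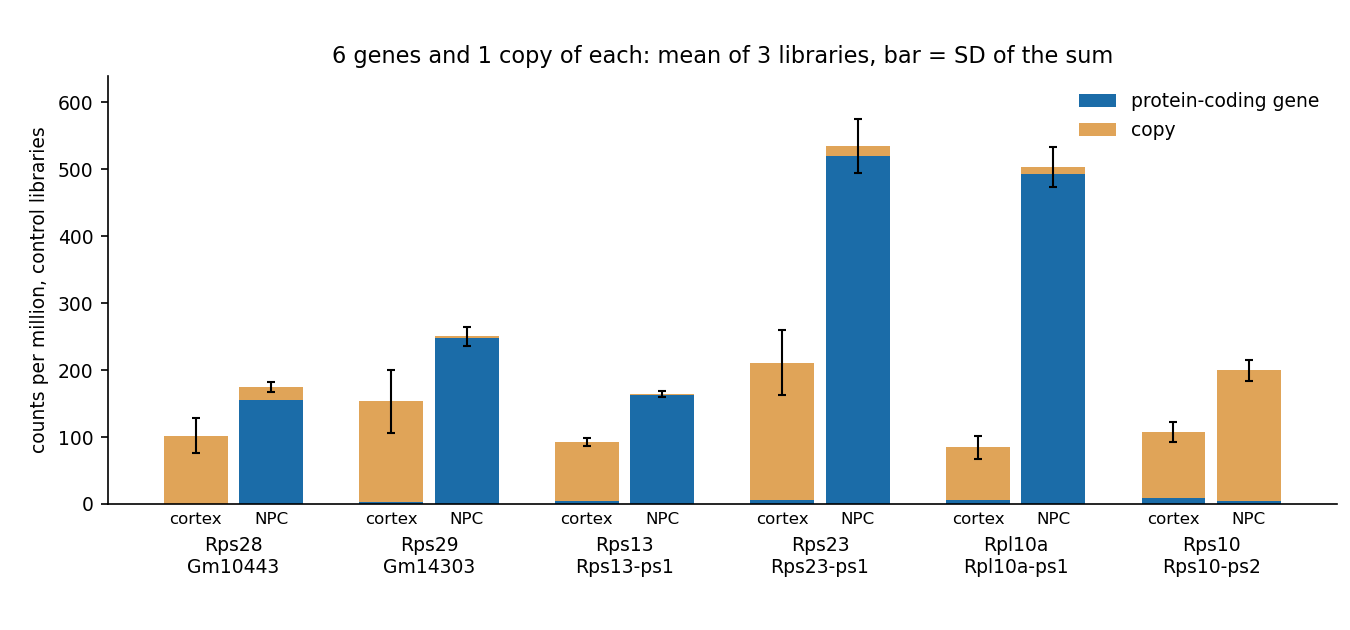
Mean CPM over 3 control libraries of 6 ribosomal protein genes and 1 copy of each, stacked, in cortex and NPC; error bars are the SD of the sum. In cortex nearly all counts lie on the copy, and in NPC on the gene, except for Rps10, where the copy holds them in both.

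Over the 21 genes whose control mean was more than 8-fold lower in cortex than in NPC, annotated copies held more counts than the gene in cortex for 16. The choice of these genes by low counts in cortex favours such a share, so the number is a description. For several of them the copies had more counts in control NPC than in control cortex, in examples named after their values were seen: 114 against 94.6 CPM for Rpl12, 231 against 173 CPM for Rpl17, 98.5 against 43.4 CPM for Rps12 and 45.5 against 30.5 CPM for Rpl36a. When each gene was summed with its copies, 9 families stayed at least 8-fold higher in NPC: those of Rpl13, Rpl27, Rpl28, Rpl31, Rpl32, Rps16, Rps18, Rps27 and Rps4l. Rpl32 is the extreme, with family sums of 8.66 ± 1.69 CPM in control cortex, against 405 ± 20.7 CPM in control NPC (n = 3 each), and its copies in the table held 0.122 CPM in cortex. For Rpl27 the family sums were 11.3 ± 1.37 and 363 ± 19.7 CPM. In these 9 families the annotated copies in the table did not make up the difference. Copies without a row in the table, 283 of 980, were not analysed here.

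The counts of 3 genes were at least 8-fold lower in NPC: Rpl24, Rpl36al and Rpl13a. Rpl24 had 52.4, 57.1 and 61.4 CPM in control cortex, against 0.620, 0.580 and 0.622 CPM in control NPC. Rpl36al, a paralogue of Rpl36a, had 82.2, 66.4 and 61.8 CPM and 0.911, 1.04 and 0.552 CPM. Rpl13a, often used as a reference gene, had 589, 435 and 451 CPM and 19.1, 19.0 and 16.2 CPM. Their copies did not make up the difference, since the family sums in NPC were 3.58 ± 0.216, 1.01 ± 0.225 and 23.7 ± 2.42 CPM (n = 3 each). The values in NPC labelled knockdown were as low as in the controls.

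These 3 genes share an annotation feature, which was looked for after the values were seen. Of the 92 genes 5 have exons overlapped on the same strand by another annotated gene other than a small RNA: Rpl13a (by Gm45713), Rpl19 (Gm11629), Rpl24 (Gm28037), Rpl36al (Gm49383) and Rps10 (RPS10-NUDT3). None of the overlapping genes has a row in the count table. All 5 were among the 7 genes called lower in NPC, and 0 of the 67 called higher had such a same-strand overlap. The other 2 called lower were Rpl22 and Rps3a2. Rps3a2 is annotated as a pseudogene, and its family, which includes Rps3a1, was higher in NPC (1.01). Overlaps on the opposite strand were left out of this count, though whether the counting used strand is not stated. Genes called higher in NPC have them, such as Rpl28 (by Ube2s), Rpl32 (Cand2), Rps18 (Vps52) and Rps28 (Kank3). So does Rps10 (Gm15420), which was called lower. The part of overlaps on either strand in the counts was not tested.

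Smaller differences between systems were found for the stalk genes and for several genes without an annotated copy. The stalk genes Rplp0, Rplp1 and Rplp2 had log2 differences of 0.37, 0.13 and -0.01, and Rpsa 0.49. Rps3 and Rpl8, which have no annotated copy, had 0.23 and 0.63 and were named after their values were seen. Rpl37rt, named likewise, had -0.24, but it is itself a copy of Rpl37, and their family had 1.90. Rps6 had 16.4 ± 1.25 CPM in control cortex, against 325 ± 28.0 CPM in control NPC (log2 difference 4.30), and 2.52 with its copies. With all families summed the median was 0.88, and 70 of 82 families were called, 64 higher and 6 lower in NPC (38.4% and 40.4% of all genes and families).

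**Figure D5:**
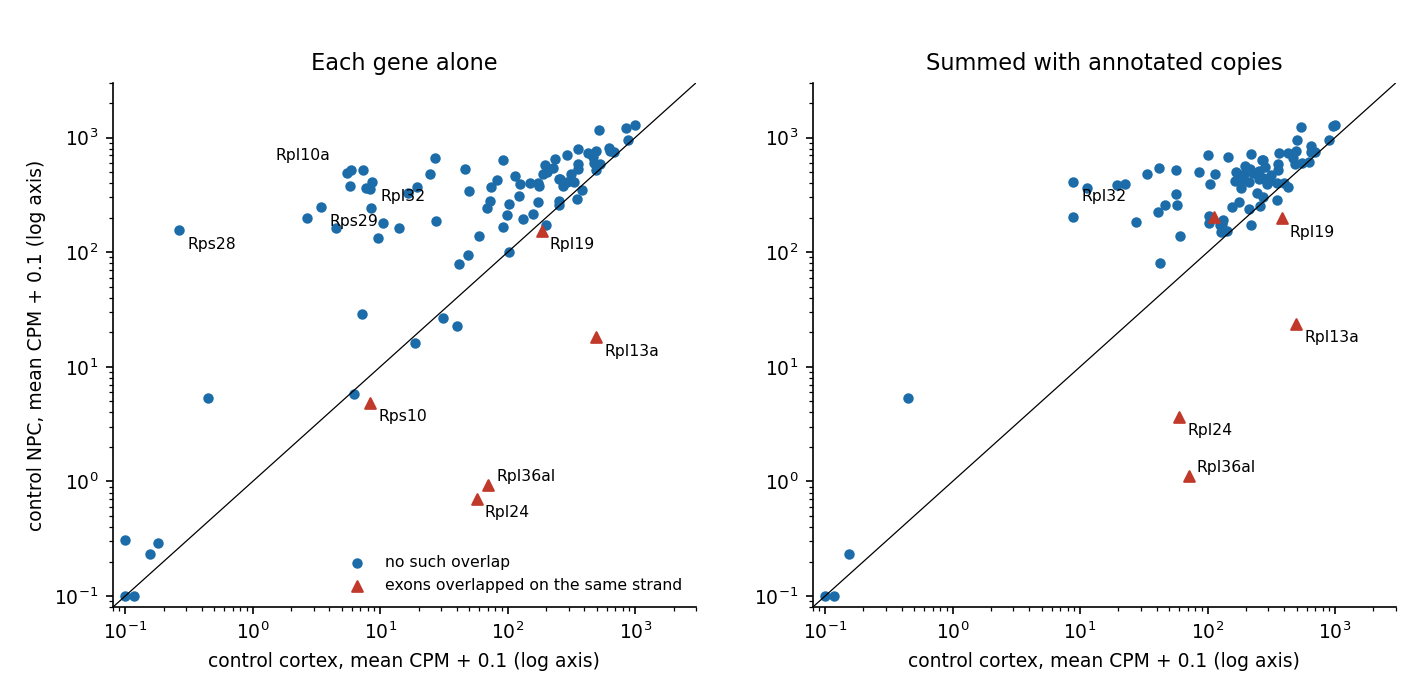
Mean CPM plus 0.1 in control cortex (horizontal, log axis) and control NPC (vertical, log axis) for the 92 genes alone (left) and for 85 families of genes summed with annotated copies (right); the line marks equal levels and triangles mark genes overlapped on the same strand. Many points left of the line move toward it after summing, while Rpl32 and the triangles for Rpl13a, Rpl24 and Rpl36al stay far from it.

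Of ribosomal protein genes that the name pattern misses, Rack1 and Fau had higher mean levels in NPC than in cortex. Rack1, a small-subunit scaffold, had a mean of 187 ± 33.9 CPM in the cortex controls and 733 ± 36.8 CPM in the NPC controls. Fau, which encodes a ubiquitin-like protein fused to a small-subunit protein, had 10.1 ± 3.17 and 195 ± 12.5 CPM (n = 3 each). Neither was called between treated and control libraries in cortex or in NPC.

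Among other genes of the ribosome pathway few were called without pairs. In cortex 0 genes were called by edgeR among 51 tested for ribosome assembly, 12 of RNA polymerase I, 14 elongation factors and other TOP messenger RNAs, 18 initiation factors and 16 regulators of ribosomal protein output (0.196% of all genes were), with medians from -0.10 to -0.03. In NPC without pairs 1 of 51 assembly genes, 1 of 12 polymerase I genes, 0 of 14, 0 of 18 and 2 of 16 were called, all lower, where 1.91% of all genes were called. Imp3, a protein of the complex that processes the small-subunit ribosomal RNA, fell from 35.2 ± 2.72 to 22.1 ± 1.16 CPM (log2 fold change -0.66, edgeR adjusted p = 0.0158). Polr1e, a polymerase I subunit, fell from 37.6 ± 1.48 to 25.6 ± 2.29 CPM (-0.55, edgeR adjusted p = 0.0296). Eif4ebp2, a repressor of cap-dependent translation that mTORC1 inactivates, fell from 254 ± 12.99 to 178 ± 17.2 CPM (-0.51, edgeR adjusted p = 0.0377), and Max, the partner of Myc, from 92.2 ± 2.74 to 74.2 ± 2.09 CPM (-0.31, edgeR adjusted p = 0.0488; n = 3 each).

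With pairs the calls in NPC were 5 higher and 3 lower of 51 assembly genes, 1 lower of 12 polymerase I genes, 0 of 14 elongation factors and TOP messenger RNAs, 1 higher and 4 lower of 18 initiation factors and 5 lower of 16 regulators, where 25.1% of all genes were called. Dkc1, the pseudouridine synthase of ribosomal RNA, rose from 80.8 ± 8.59 to 102 ± 4.07 CPM (log2 fold change 0.35, edgeR adjusted p = 0.000225 paired). Larp1, which binds the TOP tract, fell from 229.6 ± 3.71 to 200.3 ± 5.17 CPM (-0.19, edgeR adjusted p = 0.0082 paired), and Eif3b, an initiation factor subunit, from 316 ± 7.19 to 269 ± 5.03 CPM (-0.23, edgeR adjusted p = 0.00329 paired; n = 3 each). The list medians in the paired fit ran from -0.07 to 0.00 for these 5 lists. The interaction term was called for 1 of 51 assembly genes and for 0 genes of the other lists, where 1.62% of all 16569 genes were called. The called gene, Ftsj3, an assembly factor, had 55.4 ± 1.60 and 41.9 ± 0.898 CPM in control and cKO cortex. In control and knockdown NPC it had 107 ± 5.29 and 106 ± 5.01 CPM (interaction 0.41, edgeR adjusted p = 0.0481).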

How the data were processed

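RNA-seq of mouse cortex and NPC was deposited as 1 table. Reads were aligned with HISAT2 to mm10, per the submitters' processing notes; its version, the counting program and the annotation are not stated in the labels. The values are the authors' deposited raw counts, 26074094 to 36713205 per library. Positions, coding sequences and copies came from GENCODE M21 (34076 of 34102 identifiers matched); copies were found with BLAST 2.17.0. Genes were filtered with filterByExpr, scaled by TMM and passed to edgeR 4.0.16 (R 4.3.3; quasi-likelihood test, robust fit) on the 6 libraries compared, all 12 for the interaction, with Benjamini-Hochberg adjustment over all tested genes and a threshold of 0.05. Intervals are 95%. DESeq2 1.42.0 was an alternative.

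Residuals of same-numbered NPC libraries correlated at 0.48, 0.50 and 0.44 (cortex 0.02, -0.16 and -0.02), so NPC values are also given paired. In simulated data with 200 changed genes, 68.7% of 1.5-fold changes were recovered in cortex and 50.7% in NPC without pairs. The simulation of NPC with pairs recovered 44.8%. In the real NPC libraries edgeR's common coefficient of variation between replicates was 0.0569 with pairs and 0.145 without. The simulated libraries took their spread from the fit without pairs, with pair effects added on top. Their spread within pairs was thus not lowered as in the real libraries. The 44.8% therefore does not measure the sensitivity of the real paired fit. Replicates differed by more than counting noise. The genes and lists were chosen with earlier results of these data known. Named were Srsf10; called genes, up to 10 a direction; paralogues and parents; the stalk genes, Rpsa, Rps6, Rpl5, Rpl11, Rps27a and Rpl13a; the 5 highest and lowest per kilobase; genes under 5 CPM throughout; and up to 3 called genes per related list and direction. Others are said to be named after their values were seen. A few genes and a sequence are not reported here.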

Additional observations from a re-analysis of the deposited data

How the results depend on the processing

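The settings tried were RLE size factors, library totals alone, no count filter, DESeq2, 1 fit of all libraries, the replicate block, leaving out each library, leaving out the libraries rich in Ttr and sex as a covariate in cortex; a fit without robust estimation and sums with annotated copies were chosen after seeing the data. The number of ribosomal protein genes called in cortex was 0 except 1 without cKO replicate 2, and leaving out each library gave 0 to 1, with medians from -0.12 to 0.03. In NPC it was 0 in every fit without pairs and 3 with the replicate block, also with RLE size factors, library totals alone, DESeq2 or annotated copies summed in that paired fit. Leaving out each NPC library or pair gave 0 to 5, with medians from -0.02 to 0.05. The interaction gave 0 to 1 when each library was left out (1 without cortex cKO replicate 2), with medians from 0.00 to 0.14. The replicate block in cortex, where the numbers do not pair the libraries, called 0, and it changed no other call on these genes. Between control systems 72 to 76 genes were called when each library was left out, with medians from 1.09 to 1.23; summed with annotated copies the median moved from 1.15 to 0.88, and Rps10 turned from -0.80 to 0.84. Calls over all genes moved more: 31 in cortex became 338 with DESeq2, 190 without the count filter, 48 in 1 fit of all libraries, 18 with the replicate block, 17 with sex as a covariate and 1 to 57 when each library was left out. In NPC 273 became 1012 with DESeq2, 426 without the count filter, 667 in 1 fit of all libraries, 3585 with the replicate block and 48 to 348 when each library was left out of the unpaired fit; for the interaction 268 became 783 with DESeq2, 677 with the replicate block and 104 to 300 when each library was left out. With 3 libraries a group, even changes of 1.5-fold can be missed among genes in general, as the simulated recovery without pairs shows. Recovery was not simulated for the ribosomal protein genes alone. Their median SE of the log2 fold change was 0.11 in cortex and 0.07 in NPC (0.05 paired). Over all tested genes it was 0.12 in cortex and 0.12 in NPC (0.08 paired). The spread between libraries, rather than depth, limits the abundant genes; for Rps28 and Rpl39l in cortex, and Rpl24 and Rpl36al in NPC, the low counts limit the precision.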
